A study of Mus musculus with 26 samples.

Results

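Mouse mammary fibroblasts that had both bone marrow-derived macrophages and tumour-conditioned medium for company were compared with fibroblasts that had neither. The comparison takes 7 of the 26 samples of the series: 4 libraries of fibroblasts co-cultured with macrophages in medium conditioned by 4T1 cells (called the combined libraries), against 3 libraries of fibroblasts mono-cultured in plain DMEM. 4T1 is a mammary carcinoma cell line derived from a BALB/c mouse, and its conditioned medium (CM) carries what those tumour cells secrete. All fibroblasts came from the normal mammary fat pad of 8-week-old BALB/c females, with 2 mice pooled per biological replicate. They were expanded in culture, depleted of CD45+ and EpCAM+ cells on magnetic beads, and seeded on collagen I at 300000 cells. After 7 days of co-culture 10000 living F4/80- CD11b- cells were sorted per library for 3' end RNA sequencing. The cells left by this gate are those without the 2 macrophage surface markers, not cells chosen by a fibroblast marker. Fibroblasts with 4T1 CM alone (2 libraries) or with macrophages alone in DMEM (3 libraries) are used where the combined state is set against each stimulus by itself. The labels give 7 days for the co-cultures and no time for the mono-cultures, so the time in culture of the baseline is not known here. Nor do they give the proportion of tumour medium, or whether equal replicate numbers share mice.

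Fibroblasts of a healthy gland build and remodel the extracellular matrix, and in tumours they can take up either a contractile, matrix-producing state or an inflammatory one with high secretion of cytokines and chemokines. Transcription factors of the NF-kB family, released from their inhibitors by signals such as interleukin 1 or tumour necrosis factor, act on many of the inflammatory genes, and AP-1 factors on many protease genes. Fibroblasts also supply macrophages with the survival factor CSF1, the ligand of the macrophage receptor CSF1R.

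In the combined libraries fibroblasts had far more RNA of neutrophil-attracting chemokines, acute-phase proteins, the gelatinase Mmp9 and the protease inhibitor Serpinb2 than in mono-culture in DMEM. They had far less RNA of the matricellular protein Ccn3, of the interleukin 1 receptor antagonist Il1rn, of the metalloproteinase inhibitor Timp3 and of several matrix genes. Of 12401 genes tested, 1412 (11.4%) passed an adjusted p under 0.05 with limma, 687 of them higher (5.54%) and 725 lower (5.85%). Without mono-culture replicate 1, the deepest library, 525 genes were called, without mono-culture replicate 2 689, without combined replicate 2 789 and without combined replicate 1 920. The changes among the called genes were larger on the falling side: 228 genes fell and 112 rose by at least 4-fold, a log2 change of 2. The median log2 change of all genes tested was -0.01. Values below are the authors' normalized reads per gene, changes are differences on the log2(value + 1) scale with their standard errors, and every adjusted p comes from limma with Benjamini-Hochberg adjustment over all genes tested.

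**Figure D1:**
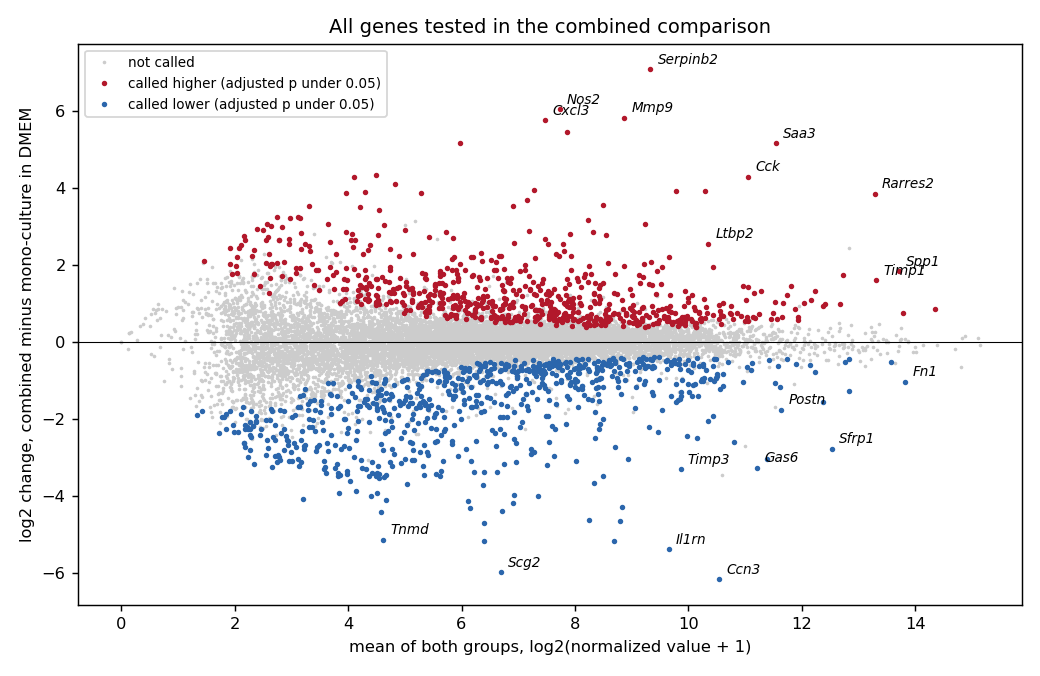
Each point is a gene: the horizontal axis gives the mean of both groups as log2(normalized value + 1), the vertical axis the log2 change, combined minus mono-culture in DMEM. The 687 genes called higher are red and the 725 called lower are blue. Serpinb2 is the highest point at 7.07 and Ccn3 the lowest at -6.17.

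The 4 combined libraries were not alike. On the first principal component, which held 42.4% of the variance among the 12 fibroblast libraries, combined replicates 1 and 2 lay at -46.8 and -53.1 and replicates 3 and 4 at -17.0 and -6.37, against 39.1 to 52.0 in mono-cultures in DMEM. Replicates 1 and 2 lay further from mono-culture than both other replicates in 308 of the 687 genes called higher (44.8%) and in 434 of the 725 called lower (59.9%). The median distance of the called falls from mono-culture was 1.56, 1.67, 1.15 and 0.85 on the log2 scale in combined replicates 1 to 4. Macrophage markers summed to 0.334%, 0.549%, 0.103% and 0.0998% of their level in macrophages sorted from the same kind of co-culture, against 0.0938%, 0.0856% and 0.0738% in mono-cultures in DMEM. Fibroblasts with 4T1 CM alone, like the mono-cultures in DMEM, had no macrophages added. Those with 4T1 CM alone gave 0.312% and 0.292%, close to combined replicate 1 and above replicates 3 and 4. A score of this size was thus reached without added macrophages, so it does not by itself measure RNA of added macrophages. Its source in these libraries was not tested. With replicates 1 and 2 alone in the combined group 1879 genes were called, and with 3 and 4 alone 510. Depth was 3710780 to 4933176 reads in combined libraries and 1945980 to 7632366 in mono-cultures in DMEM. The part of these differences in the results was not tested, apart from the values given beside them below.

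**Figure D2:**
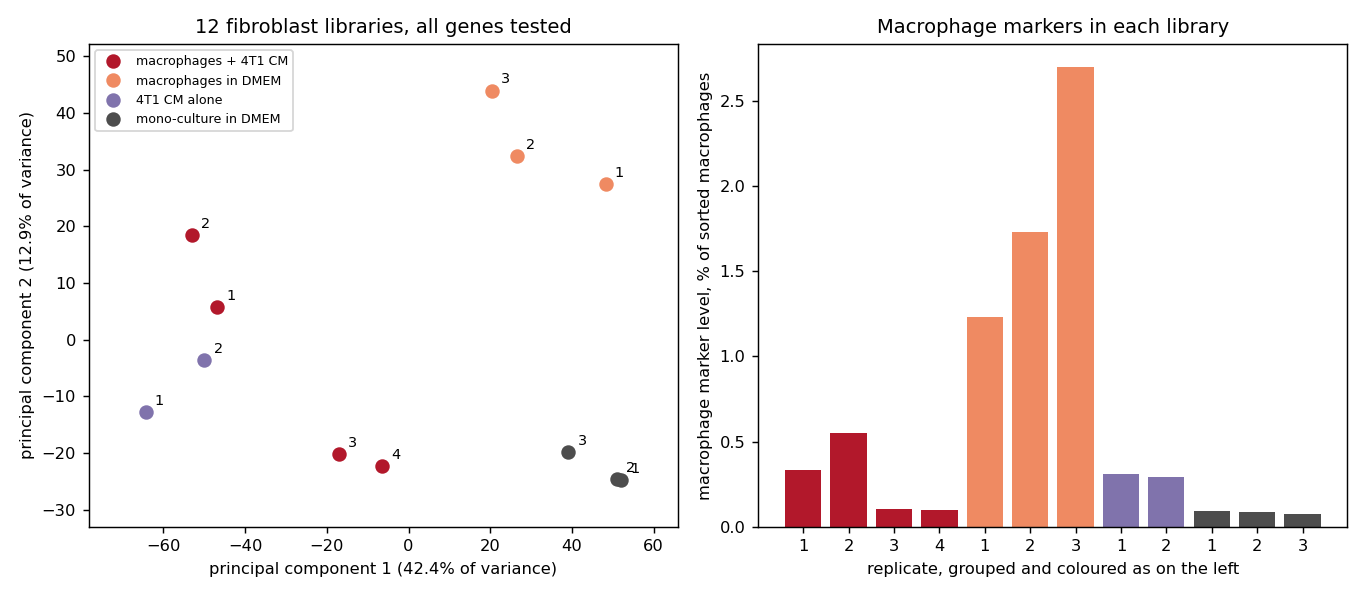
Left, the 12 fibroblast libraries on the first 2 principal components of log2(normalized value + 1), with replicate numbers beside the points. Right, the summed level of macrophage markers in each library as a percent of its mean in sorted macrophages. Combined replicates 1 and 2 stand at 0.334% and 0.549%, and replicates 3 and 4 near the mono-cultures in DMEM. The libraries of 4T1 CM alone, without added macrophages, stand at 0.312% and 0.292%.

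Promoter windows of the called genes were searched for motifs of the factors named above. In RefSeq promoter windows (GRCm38.p6, 250 bases before to 50 after a start site), a perfect match to the NF-kB motif (GGGA, any base, then TTTCC) on either strand was rare: 11 of 725 windows of genes called higher held it (1.52%), 1 of 672 windows of genes called lower (0.149%), 59 of 12559 windows of all genes tested (0.47%) and 135 of all 32851 windows in the table (0.411%). Among the 9 genes called higher with a match were the chemokine genes Cxcl1, Cxcl2 and Cxcl3, which lie near each other on chromosome 5 and are related in sequence. Their 130 bases before the start site are shown to compare the place of the motif, in capitals.
Cxcl1, chr5:90891115-90891244, plus strand: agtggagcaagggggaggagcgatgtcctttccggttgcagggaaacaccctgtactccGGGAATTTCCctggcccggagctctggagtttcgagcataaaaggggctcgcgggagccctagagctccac
Cxcl2, chr5:90903769-90903898, plus strand: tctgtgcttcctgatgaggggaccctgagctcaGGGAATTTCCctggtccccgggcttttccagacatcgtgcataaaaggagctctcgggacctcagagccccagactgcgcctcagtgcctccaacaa
Cxcl3, chr5:90785971-90786100, plus strand: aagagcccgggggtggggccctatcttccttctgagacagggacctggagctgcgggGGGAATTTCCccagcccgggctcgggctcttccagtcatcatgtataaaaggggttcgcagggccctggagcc
All 3 matches read GGGAATTTCC on the gene's own strand, between 97 and 62 bases before the start site. The AP-1 motif was searched as TGANTCA with any base at N, a loose pattern that also counts TGAATCA, as in Serpinb2 below. It was common by comparison: 7.72% of windows of genes called higher held it on either strand, 4.76% of windows of genes called lower, 5.25% of all windows of genes tested and 7.81% of all windows in the table. Of the genes called higher 51 held a match. The 5 shown for the same 130 bases, with the match in capitals, are examples of proteolysis and cytokine signalling chosen after the matches were seen, and no test rests on them.
Serpinb2, chr1:107511293-107511422, plus strand: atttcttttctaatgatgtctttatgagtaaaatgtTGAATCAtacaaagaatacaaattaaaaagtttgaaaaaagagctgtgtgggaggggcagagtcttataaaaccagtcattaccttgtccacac
Mmp3, chr9:7445692-7445821, plus strand: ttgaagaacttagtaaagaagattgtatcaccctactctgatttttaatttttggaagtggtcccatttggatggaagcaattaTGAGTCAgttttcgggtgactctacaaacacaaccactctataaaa
Mmp10, chr9:7502212-7502341, plus strand: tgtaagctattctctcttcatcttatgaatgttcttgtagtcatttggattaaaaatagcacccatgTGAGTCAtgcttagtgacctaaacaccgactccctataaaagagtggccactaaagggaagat
Il11, chr7:4778142-4778271, minus strand: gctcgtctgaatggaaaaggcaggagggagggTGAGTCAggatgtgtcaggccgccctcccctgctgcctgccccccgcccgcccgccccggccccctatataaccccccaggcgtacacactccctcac
Plaur, chr7:24462353-24462482, plus strand: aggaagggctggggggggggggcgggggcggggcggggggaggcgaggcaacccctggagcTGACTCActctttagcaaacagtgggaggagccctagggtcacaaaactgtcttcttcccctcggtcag
Mmp3 and Mmp10 are neighbours on chromosome 9. Serpinb2 has another window in the table, with a different start site, in which the match begins at position -181. Car9, which also rose, held a match at position -77; its call was lost without mono-culture replicate 1 (adjusted p = 0.0865) or 2 (adjusted p = 0.0509). Il1rn, which fell, also held an AP-1 match 141 bases before its start site. CArG boxes, the motif of serum response factor, were found in 2.07%, 1.64% and 1.32% of the windows of genes called higher, called lower and all genes tested. A match is only a run of letters in this window, and no binding was measured.

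Of the 5 tested CXC chemokines that bind the receptor CXCR2, 4 rose and none fell, with a list median of 3.92, and the same number was called without any 1 library of either group. The chemokine Cxcl5 (chr5:90759360-90761624, plus strand) had 1418, 1912, 3960 and 2183 normalized reads in combined libraries, against 194, 95.4 and 162 in mono-cultures in DMEM. Cxcl3 had 189, 454, 533 and 219, against 2.05, 6.09 and 8.47. Cxcl1, whose promoter is shown above, had 376, 685, 957 and 626, against 58.3, 30.5 and 83.1. In each of the 3 genes every combined library was above every mono-culture in DMEM. The log2 changes were 3.92 ± 0.32 for Cxcl5 (SE, adjusted p = 2.17e-05), 5.75 ± 0.44 for Cxcl3 (adjusted p = 1.56e-05) and 3.54 ± 0.53 for Cxcl1 (adjusted p = 0.00123). Cxcl2 was much lower in level, at 34.5, 50.7, 54.7 and 25.8 in combined libraries and 1.02, 0 and 3.08 in mono-cultures (4.33 ± 0.50, adjusted p = 0.000276). The mean macrophage marker share of the combined libraries, 0.271%, times the level of the gene in sorted macrophages came to 7.09% of the Cxcl2 level, 1.33% of the Cxcl3 level, 0.0735% of the Cxcl1 level and 0.0253% of the Cxcl5 level. This product takes the whole marker score as macrophage RNA, although libraries without added macrophages also had a score. Ppbp, the fifth member, did not pass the test (adjusted p = 0.323).

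**Figure D3:**
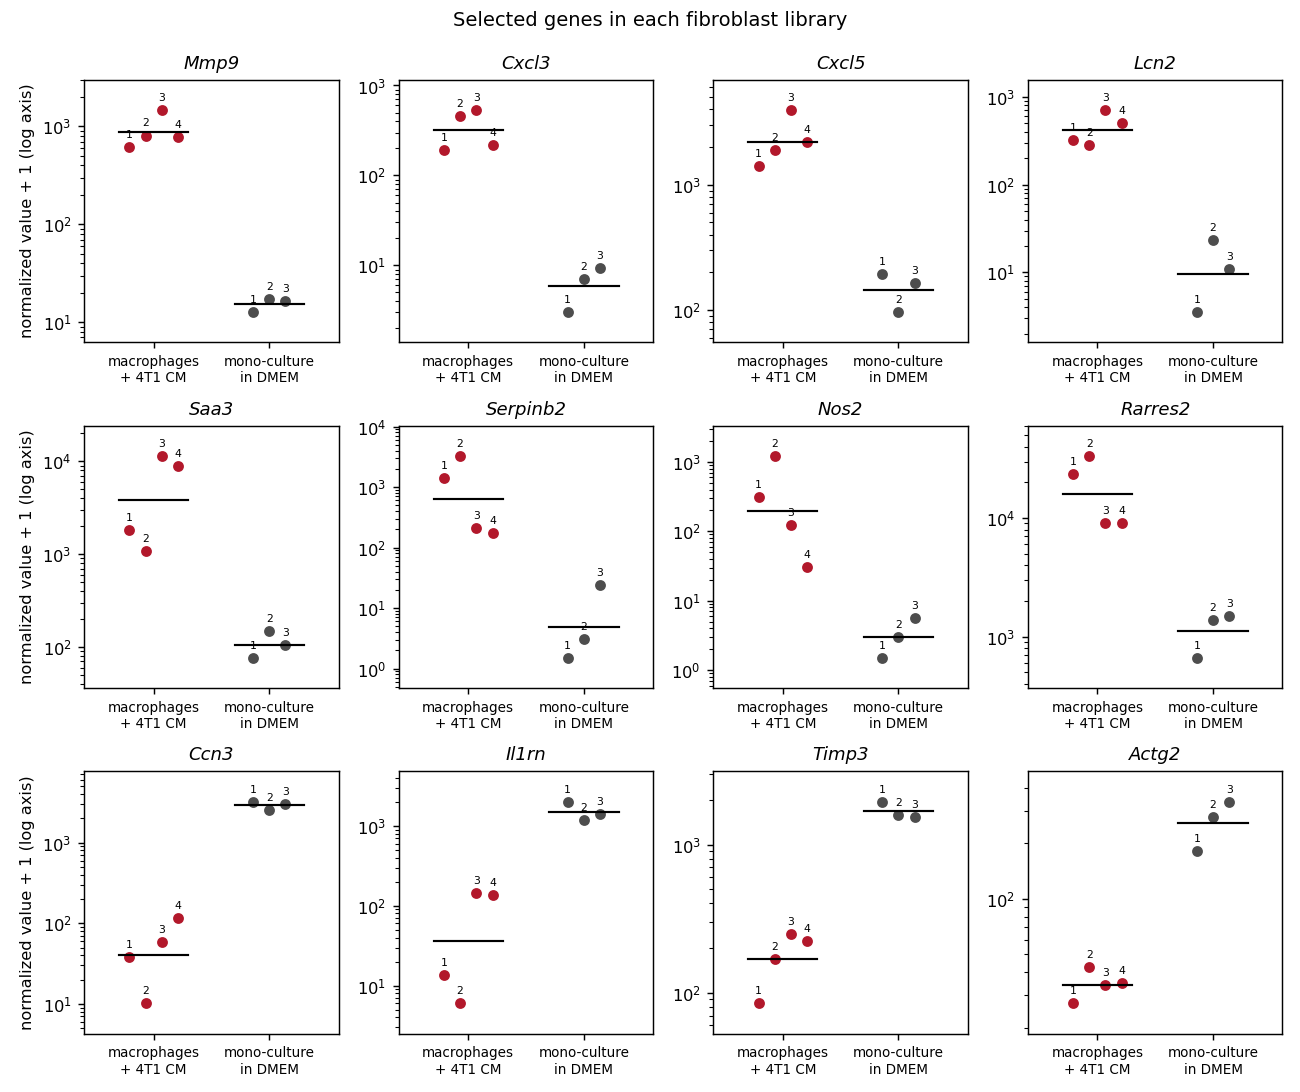
Normalized value + 1 on a log axis for 12 genes in the 4 combined libraries (left in each panel) and the 3 mono-cultures in DMEM (right). Points are libraries with their replicate numbers and lines are means of the log values. In all 12 genes the groups do not overlap: 8 genes are higher in the combined libraries and 4 are lower. The groups also do not overlap in 659 of the 687 genes called higher and 694 of the 725 called lower.

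Other cytokines moved in both directions: 9 of 24 tested rose and 3 fell. Without mono-culture replicate 1 these counts were 6 and 1, and without mono-culture replicate 2 they were 6 and 2. Ccl2, the main attractant of monocytes, had 1250, 1392, 3163 and 3109 in combined libraries, against 550, 475 and 561 in mono-cultures in DMEM (1.95 ± 0.33, adjusted p = 0.00253). Csf1 had 9297, 8605, 8094 and 8611, against 4024, 4441 and 4633. The Csf1 values hardly differed among the 4 combined libraries, and the log2 change was 0.99 ± 0.17 (adjusted p = 0.00245). Il11, a cytokine of the interleukin 6 family, had 58.5, 47.3, 37.4 and 45.8, against 14.8, 22.3 and 10.8 (1.55 ± 0.29, adjusted p = 0.00432). Csf2, which encodes GM-CSF and was chosen after its values were seen, was near the limit of detection: it averaged 3.52 in combined libraries, had no read in the mono-cultures in DMEM, and was at least 4.4-fold higher when set against a floor of 3 reads over that group (adjusted p = 0.0396). The Csf2 call was lost without any 1 of 8 libraries (adjusted p 0.0523 to 0.125). Il1rn, the soluble blocker of the interleukin 1 receptor (chr2:24336853-24351494, plus strand), fell: 12.5, 4.98, 145 and 137 in combined libraries, against 2010, 1186 and 1411. Its 4 combined values split by replicate, with 1 and 2 lowest, yet all lay far below the mono-cultures (-5.39 ± 0.90, adjusted p = 0.00239). Cxcl12, which retains and guides leukocytes and stem cells, had 2066, 1228, 5154 and 3450, against 9096, 6613 and 7352 (-1.56 ± 0.37, adjusted p = 0.0176). Without mono-culture replicate 1 this call of Cxcl12 was lost (adjusted p = 0.0881).

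The NF-kB and acute-phase list had 12 of 23 tested members higher and none lower, with a median of 1.17. Nos2, the inducible nitric oxide synthase, had 309, 1222, 123 and 30.0 in combined libraries, against 0.512, 2.03 and 4.62 in mono-cultures in DMEM (6.05 ± 0.89, adjusted p = 0.00103). Saa3, an acute-phase serum amyloid A, had 1840, 1088, 11455 and 8985, against 75.7, 148 and 104 (5.16 ± 0.63, adjusted p = 0.000336). Lcn2, which binds bacterial iron carriers, had 318, 281, 707 and 504, against 2.56, 22.3 and 10.0 (5.45 ± 0.55, adjusted p = 9.39e-05). Nos2 was highest in replicates 1 and 2, whereas Saa3 and Lcn2 were highest in replicates 3 and 4, so the order of the combined libraries was not the same for all rises. Ch25h, which makes 25-hydroxycholesterol, had 719, 607, 472 and 356, against 67.0, 54.8 and 50.8 (3.16 ± 0.31, adjusted p = 7.68e-05). Relb, an NF-kB subunit of the alternative pathway, had 281, 267, 229 and 178, against 93.6, 95.4 and 85.4 (1.36 ± 0.16, adjusted p = 0.00033). The list was not uniform: the adhesion molecule Vcam1 and the pattern recognition protein Ptx3, chosen after their values were seen, had log2 changes of 0.01 and -0.07 and did not pass the test.

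Among metalloproteinases 4 of 20 tested rose and 10 fell, with a median of -0.70, and 5 fell without mono-culture replicate 1. Mmp9, gelatinase B (chr2:164940780-164955850, plus strand), had 613, 807, 1471 and 778 in combined libraries, against 11.8, 16.2 and 15.4 in mono-cultures in DMEM. This was a log2 change of 5.82 ± 0.24 with an adjusted p of 1.26e-08, with no overlap between the groups. Sorted macrophages from these co-cultures had 52.3 CPM (counts scaled to the library total) of Mmp9, and the macrophage marker share times that level came to 0.0618% of the fibroblast level. The stromelysins rose as well. Mmp3 had 1297, 1935, 837 and 1314, against 299.8, 252 and 283 (2.21 ± 0.38, adjusted p = 0.00262). Mmp10 had 33.4, 62.3, 15.6 and 22.5, against 1.53, 2.03 and 1.54 (3.50 ± 0.49, adjusted p = 0.000812). The membrane-bound collagenase Mmp14 fell, with 839, 801, 966 and 1312 against 2313, 1817 and 2319 (-1.15 ± 0.17, adjusted p = 0.000866), and so did Mmp11 (-1.42 ± 0.20, adjusted p = 0.000842). The other rise was Adam8, chosen after its value was seen (1.40 ± 0.43, adjusted p = 0.0495), a call lost without any 1 of 10 libraries (adjusted p 0.0506 to 0.206): its macrophage level times the marker share came to 67.0% of its fibroblast level, the highest such value of the 610 called rises with a macrophage level.

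Protease inhibitors and regulators of plasminogen included some of the largest rises. Serpinb2, which encodes plasminogen activator inhibitor 2 (chr1:107511423-107535478, plus strand), had 1432, 3288, 210 and 174 in combined libraries, against 0.512, 2.03 and 23.1 in mono-cultures in DMEM. Its log2 change of 7.07 ± 1.00 (adjusted p = 0.00082) was the largest rise of all genes tested, with replicates 1 and 2 well above 3 and 4. Timp1, an inhibitor of metalloproteinases, had 12314, 19420, 13307 and 16468, against 4714, 5391 and 4827 (1.61 ± 0.19, adjusted p = 0.00033). Timp3, its matrix-bound relative (chr10:86300372-86349506, plus strand), moved the other way, with 83.5, 169, 248 and 222 against 1947, 1578 and 1523. The fall of Timp3 was -3.32 ± 0.39 on the log2 scale (adjusted p = 0.000328). Plaur, the receptor that holds urokinase at the cell surface, had 343, 411, 295 and 312, against 141, 156 and 166 (1.13 ± 0.18, adjusted p = 0.00175). In all, 5 of 13 tested members of this list rose and 2 fell, and 1 fell without combined replicate 1 or 2 or any 1 mono-culture.

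The matrix genes did not fall as a block. Of 20 collagens 2 rose and 4 fell, against 5.54% higher and 5.85% lower over all genes tested. Without mono-culture replicate 2 or 3 no rise was called, and 1 without mono-culture replicate 1 or combined replicate 2. The main fibrillar chains, chosen after their values were seen, did not pass the test, with log2 changes of 0.16 ± 0.16 for Col1a1 (adjusted p = 0.573) and -0.08 ± 0.19 for Col1a2 (adjusted p = 0.837). Col14a1, a fibril-associated collagen, had 10.4, 1.66, 3.48 and 10.8 in combined libraries, against 199, 108 and 91.6 in mono-cultures in DMEM (-4.32 ± 0.58, adjusted p = 0.000532). Col8a1, a short-chain collagen of vessel walls, had 101, 92.2, 171 and 239, against 520.2, 532 and 649 (adjusted p = 0.00176). Col18a1, of basement membranes, also fell (-1.77 ± 0.30, adjusted p = 0.00239). Proteoglycans and matricellular proteins had 5 of 25 members higher and 10 lower, with a median of -0.85. Without mono-culture replicate 1 these counts were 3 and 6, and without combined replicate 2 they were 3 and 8. Ccn3, which modulates growth and adhesion (chr15:54745702-54754039, plus strand), had 37.6, 9.13, 58.2 and 114, against 3223, 2568 and 2973. That fall, -6.17 ± 0.68 (adjusted p = 0.000175), was the largest fall of all genes tested, and the highest combined value was far below the lowest mono-culture. Periostin (Postn) had 1087, 860, 2012 and 2090, against 5852, 4227 and 4451 (-1.77 ± 0.30, adjusted p = 0.00249). Fn1, fibronectin, had 8510, 7137, 10842 and 11991, against 22362, 18213 and 17772 (-1.04 ± 0.23, adjusted p = 0.0107). Without mono-culture replicate 1 the adjusted p of Fn1 was 0.0618.

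Several matrix proteins rose. Osteopontin (Spp1), which is also made by macrophages, had 16617, 23023, 19798 and 24649 in combined libraries, against 5859, 5880 and 5780 in mono-cultures in DMEM (1.83 ± 0.34, adjusted p = 0.00407). Its level in sorted macrophages was 7062 CPM, which times the marker share came to 0.364% of its fibroblast level. Tenascin C (Tnc) had 3967, 4162, 3149 and 2976, against 1361, 1519 and 1333 (1.33 ± 0.17, adjusted p = 0.000462). Decorin (Dcn), a fibroblast marker that limits fibril width, had 7613, 6744, 5989 and 6761, against 2985, 3549 and 1919 (1.31 ± 0.20, adjusted p = 0.00163). The elastic system split: Ltbp2, a microfibril protein, rose with 2880, 2166, 1656 and 2144 against 225, 426 and 527 (2.55 ± 0.27, adjusted p = 0.000149). Elastin itself (Eln) fell, with 1.04, 0, 4.34 and 4.17 against 47.6, 48.7 and 43.9 (-4.12 ± 0.75, adjusted p = 0.00392). Fibrillin 2 (Fbn2) fell by 2.91 ± 0.51 (adjusted p = 0.00292). Of 22 genes for cross-linking and elastic fibres 3 rose and 4 fell, and 1 rose and 3 fell without mono-culture replicate 1 or 2.

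Of 18 contractile genes 5 fell and 1 rose, with a median of -0.48. The falls numbered 2 without combined replicate 1, 3 without combined replicate 2 and 1 without mono-culture replicate 2 or 3, and the summed level of the list overlapped between the groups (32390 to 39970 in combined libraries, 29470 to 44250 in mono-cultures in DMEM). Actg2, the gamma actin of smooth muscle (chr6:83512905-83536265, minus strand), had 26.1, 41.5, 33.0 and 34.2 in combined libraries, against 182, 276 and 336 in mono-cultures in DMEM (-2.91 ± 0.37, adjusted p = 0.000409). Acta2, the myofibroblast actin, had 54.3, 48.2, 94.7 and 124, against 138, 244 and 216 (-1.37 ± 0.33, adjusted p = 0.0194). The groups of Acta2 do not overlap but the gap is small, and the call was lost in 4 of the fits without 1 library: combined replicate 1 (adjusted p = 0.0544), combined replicate 2 (0.0556), mono-culture replicate 2 (0.0941) and mono-culture replicate 3 (0.0655). The focal adhesion protein gene Zyx rose, with 7427, 9652, 5276 and 5672 against 3322, 3793 and 3605 (0.93 ± 0.19, adjusted p = 0.00788). In the TGF-beta and activin pathway 4 of 18 members fell and none rose, although the list median was 0.10. Without mono-culture replicate 1 only 1 fall was called. The ligand Tgfb3 had 134, 153, 228 and 131, against 431, 398 and 397 (-1.37 ± 0.21, adjusted p = 0.00124). The receptor Tgfbr2 had 362, 371, 401 and 372, against 1013, 694 and 750 (-1.10 ± 0.22, adjusted p = 0.00704), and its call was lost without mono-culture replicate 1 (adjusted p = 0.0507).

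Growth factors changed in both directions, with 8 of 27 tested higher and 6 lower. Ereg, a ligand of the epidermal growth factor receptor, had 87.7, 106, 47.8 and 46.6 in combined libraries, against 2.56, 2.03 and 8.47 in mono-cultures in DMEM (3.88 ± 0.49, adjusted p = 0.000373). Vegfa, the vascular growth factor, had 3120, 4800, 2585 and 2018, against 991, 1139 and 1197 (1.43 ± 0.23, adjusted p = 0.00205). Ereg and Vegfa were both highest in combined replicates 1 and 2. Gas6, which bridges dying cells to receptors on phagocytes, fell, with 299.6, 170, 671 and 981 against 5282, 3702 and 3665 (-3.27 ± 0.51, adjusted p = 0.00153). Igfbp4 and Igfbp3, carriers of insulin-like growth factors, fell as well, with log2 changes of -3.06 ± 0.49 for Igfbp4 (adjusted p = 0.00192) and -2.50 ± 0.46 for Igfbp3 (adjusted p = 0.00436). Igfbp7 was the IGF-binding member that rose, with 25323, 24794, 28664 and 28602 against 11947, 16335 and 16962 (0.85 ± 0.17, adjusted p = 0.00618). Sfrp1, a secreted antagonist of Wnt ligands, had 1052, 439, 3338 and 2864, against 10271, 9330 and 10255 (-2.78 ± 0.54, adjusted p = 0.00575).

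The rise with the largest difference in level was Rarres2, which encodes chemerin, an attractant of macrophages and dendritic cells (chr6:48569696-48572789, minus strand). It had 23376, 33547, 9039 and 9071 in combined libraries, against 662, 1381 and 1493 in mono-cultures in DMEM (3.84 ± 0.49, adjusted p = 0.0004). Replicates 1 and 2 were well above 3 and 4, and all 4 were above the mono-cultures. Complement genes split: C3, the central component, had 382, 272, 627 and 405, against 63.9, 65.0 and 43.9 (2.81 ± 0.36, adjusted p = 0.000436). C4b, of the classical pathway, had 59.5, 29.9, 243 and 222, against 985, 765 and 774 (-3.06 ± 0.64, adjusted p = 0.00815). Cck, a peptide hormone of gut and brain, had 1804, 4883, 4340 and 5139, against 79.3, 329 and 266 (4.29 ± 0.52, adjusted p = 0.000336).

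The other leading rises and falls belong to several classes. Among the rises, Fmo2, a flavin monooxygenase, had 241, 500.0, 189 and 227 in combined libraries, against 14.3, 12.2 and 26.2 in mono-cultures in DMEM (3.93 ± 0.37, adjusted p = 6.6e-05). The transporters Slco4a1 (5.16 ± 0.63, adjusted p = 0.000336) and Slc15a3 (4.11 ± 0.40, adjusted p = 7.68e-05) and the potassium channel Kcnq5 (4.27 ± 0.55, adjusted p = 0.000456) also rose, and no mono-culture held more than 4.09 of any of the 3. The macrophage level times the marker share came to 6.01% of the fibroblast level for Slc15a3 and 0.328% for Slco4a1. Among the falls, Scg2, a secretory granule protein, had 0, 0.83, 2.61 and 1.67, against 478, 60.9 and 73.1 (-5.99 ± 0.85, adjusted p = 0.000849). Tnmd, a tendon glycoprotein, had 0, 0, 0 and 1.67, against 68.0, 40.6 and 30.8 (-5.14 ± 0.81, adjusted p = 0.00173). These 2 genes were almost without reads in every combined library. Lgr5, a receptor of R-spondins, had 1.04, 0, 2.61 and 1.67, against 46.0, 46.7 and 40.8 (-4.43 ± 0.65, adjusted p = 0.00101). The log2 changes were -4.64 ± 0.65 for Podn, a small leucine-rich proteoglycan (adjusted p = 0.000782), -5.18 ± 0.91 for Itgbl1 (adjusted p = 0.00313), -5.16 ± 0.99 for C1qtnf3 (adjusted p = 0.00537) and -4.40 ± 0.79 for the peptidase Ace (adjusted p = 0.00353). Ptn, a heparin-binding growth factor, fell by 4.70 ± 1.01 (adjusted p = 0.00943; 0.0631 without mono-culture replicate 1). Gpx3, the secreted glutathione peroxidase, had 3888, 3393, 4022 and 5829, against 10515, 8782 and 11526 (-1.28 ± 0.22, adjusted p = 0.00284).

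Of 24 glycolysis and hypoxia genes 7 rose and none fell, with a median of 0.41. The rises numbered 2 without mono-culture replicate 1, 3 without mono-culture replicate 2 and 4 without combined replicate 2. Slc2a1, a glucose transporter, had 2133, 2724, 1769 and 1743 in combined libraries, against 875, 1123 and 1092 in mono-cultures in DMEM (1.01 ± 0.17, adjusted p = 0.0029). Slc16a3, which exports lactate, rose by 1.01 ± 0.20 (adjusted p = 0.00576). In the NRF2 list 3 of 18 rose and none fell, and 1 rose without mono-culture replicate 2 or 3. Hmox1, haem oxygenase, had 3213, 3438, 3650 and 4099, against 2801, 1655 and 2130 (0.74 ± 0.18, adjusted p = 0.0199), and this call was lost without mono-culture replicate 2 (adjusted p = 0.108) or 3 (adjusted p = 0.0549). Cell-cycle genes had 2 of 34 higher and none lower, a share near the 5.54% of all genes tested, and none was called without combined replicate 2 or mono-culture replicate 1 or 2. Interferon-response genes had 3 of 27 higher, Irf7, Ddx58 and Ifi204, against 5.54% of all genes tested. None of the list was called without any 1 of the 3 mono-cultures in DMEM, and 9 were called without combined replicate 2. Of 14 genes of MHC class I presentation 3 rose. All 3 are genes that day 0 macrophages hold at 4 times the fibroblast level or more, as are 11 of the 14. H2-D1 had 3680, 3272, 4721 and 4261, against 1807, 2047 and 1883 (1.05 ± 0.16, adjusted p = 0.00163), and its macrophage level times the marker share came to 1.56% of its fibroblast level. Cholesterol synthesis had 1 of 21 members lower and none higher, and the ATF4 list 2 of 20 lower and none higher. Over all genes tested 5.85% were called lower. No member of either list was called without any 1 of the mono-cultures in DMEM.

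Markers of the cell types that the cultures could hold were counted next, beside shares of 5.54% higher and 5.85% lower over all genes tested. Of 16 fibroblast markers 1 was called higher, Dcn, a share near that of all genes tested, and none was called lower. Pdgfra, Pdgfrb, Thy1 and Vim did not pass the test. Without combined replicate 3 or without combined replicate 4, 2 fibroblast markers were called lower. Of 22 tested macrophage markers 2 rose, Csf1r and Cd14, and 4 without combined replicate 4. Adgre1, the gene of F4/80, had 5.22, 3.32, 0 and 0.833 in combined libraries, against 2.05, 0 and 0 in mono-cultures in DMEM. Itgam, the gene of CD11b, had 9.40, 18.3, 0 and 0, against 0.512, 2.03 and 0, and with 4T1 CM alone it had 1.97 and 2.47. Csf1r had 97.1, 103, 54.7 and 50, against 17.9, 20.3 and 20.8 (1.83 ± 0.29, adjusted p = 0.00165), and its macrophage level times the marker share came to 17.5% of its fibroblast level. Of 10 Schwann and glial markers 6 were called lower and 1 higher. The falls numbered 1 without mono-culture replicate 1 or 2 and 2 without mono-culture replicate 3 or combined replicate 1 or 2. Their summed level ran from 38.6 to 923 in combined libraries (median 178), against 1323 to 1665 in mono-cultures in DMEM (median 1642). S100b, a calcium-binding protein of glia, had 1.04, 0, 6.08 and 4.17, against 23, 18.3 and 19.2 (-2.84 ± 0.60, adjusted p = 0.00841). Sox10, the master regulator of Schwann cells, chosen after its values were seen, had 4.18, 14.9, 112 and 327, against 538, 593 and 469 (-3.67 ± 1.01, adjusted p = 0.0331), a call lost without any 1 of 5 libraries (adjusted p 0.061 to 0.111). The gene called higher in that list, Mpzl2, is an adhesion gene that epithelial cells also express. Skeletal muscle markers had 5 of 11 lower and none higher, endothelial markers 2 of 12 lower, and of 3 mural-cell markers 2 fell and 1 rose. The muscle falls numbered 1 without combined replicate 1 or 2 or mono-culture replicate 2, and 3 without mono-culture replicate 1. Without mono-culture replicate 2 or combined replicate 2 no endothelial or mural-cell marker was called. Of the 4 epithelial markers Cldn3 rose, and no adipocyte marker of 4 passed the test. In these bulk libraries fewer cells of a type and less RNA per cell cannot be told apart.

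**Figure D4:**
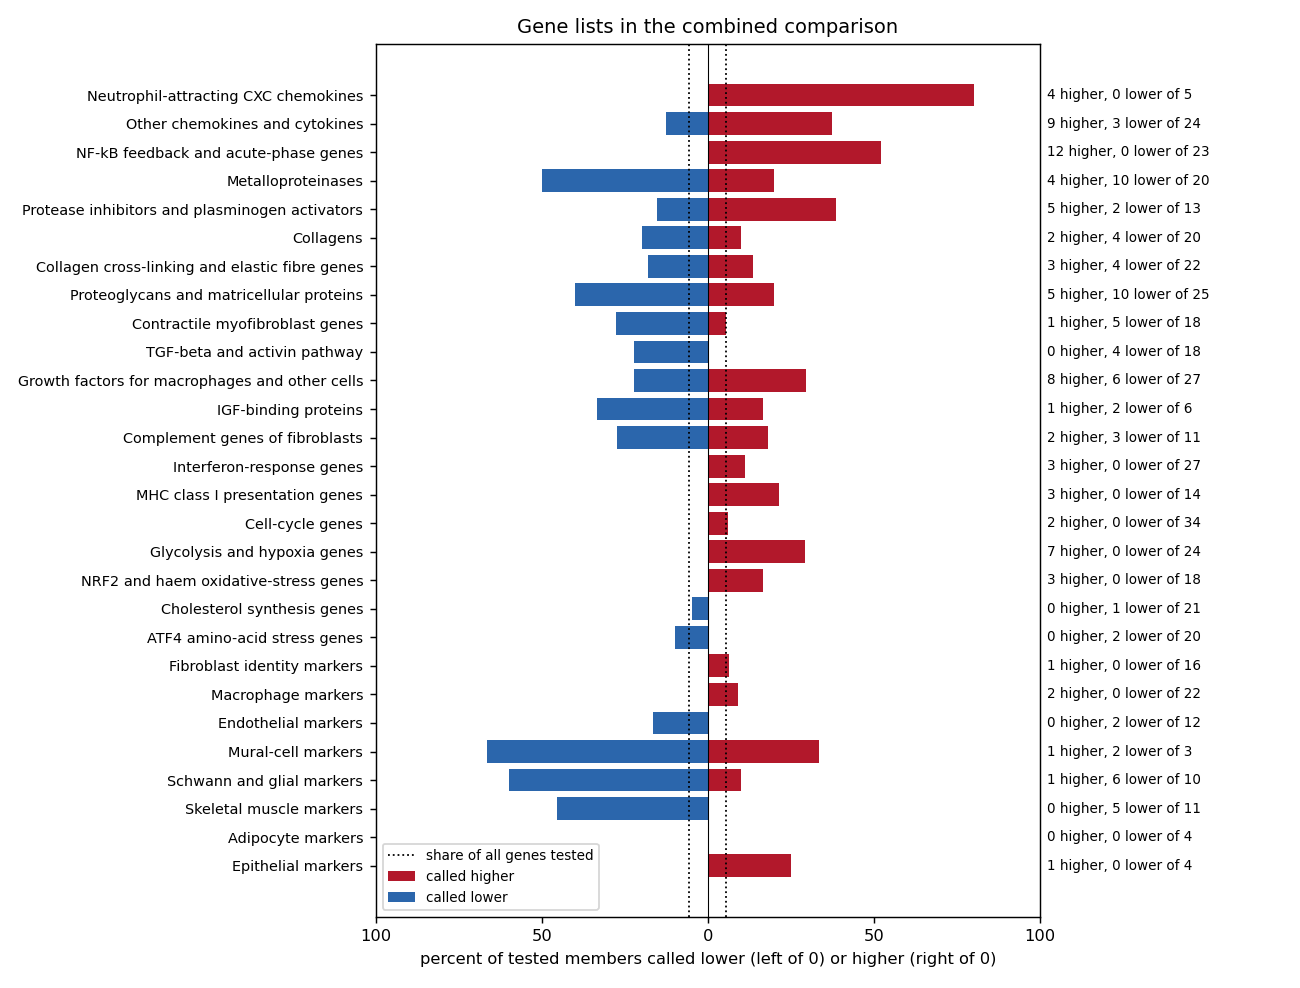
For each gene list, the percent of its tested members called higher (red, right of 0) or lower (blue, left of 0) in the combined libraries relative to mono-cultures in DMEM, with the counts at the right. Dotted lines mark the shares over all genes tested, 5.54% higher and 5.85% lower; the CXC chemokine list reaches furthest to the right with 4 of 5 members.

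Set against 4T1 CM alone, the combined state differed in few genes. Of 12401 genes 3 were called higher (0.0242%) and 0 lower, with 1155 at an unadjusted p under 0.05; edgeR called 0 and DESeq2 called 27. The 3 were the muscle genes Mybph, Myl1 and Mymk (Mymk named after its value was seen), which had been nearly silent with 4T1 CM alone. Against mono-culture in DMEM, Mybph and Myl1 were called lower, calls lost without any 1 of 5 libraries for Mybph and 4 for Myl1. The muscle list summed to 342 to 672 in combined libraries and 814 to 4258 in mono-cultures in DMEM. Mybph had 11.5, 32.4, 35.6 and 34.2 in combined libraries, against 0 and 0 with 4T1 CM alone. This call against 4T1 CM alone was lost without any 1 of 5 libraries (adjusted p 0.0582 to 0.685). Myl1 had 23, 40.7, 103 and 74.1, against 1.97 and 0.825. The log2 difference of Myl1 was 4.51 ± 0.67 (adjusted p = 0.0486), and this call was lost without any 1 of 8 libraries (adjusted p 0.0521 to 0.689). Without the second library of 4T1 CM alone 296 genes were called, without any other 1 library 0 to 8, and with combined replicates 3 and 4 only 93 genes, so the number rests on which libraries are compared. A low count with 2 libraries on one side does not show that the states were alike. For the leading genes the values with 4T1 CM alone were 1303 and 1721 for Mmp9, 3092 and 4372 for Cxcl5, 25267 and 23302 for Rarres2, and 17.8 and 23.9 for Ccn3. The difference, combined minus 4T1 CM alone, was -0.79 ± 0.27 (SE, adjusted p = 0.435) for Mmp9 and -0.74 ± 0.37 (adjusted p = 0.559) for Cxcl5 on the log2 scale.

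Set against macrophages alone in DMEM, the combined state differed in 725 genes (5.85%), 289 higher (2.33%) and 436 lower (3.52%). Lcn2 had 318, 281, 707 and 504 in combined libraries, against 6.27, 20.8 and 21.7 with macrophages alone (4.79 ± 0.55, adjusted p = 0.000331). Cxcl3 had 8.96, 24.9 and 14.5 with macrophages alone, and the combined level was higher by 4.32 ± 0.44 (adjusted p = 0.000132). Ccn3 had 4527, 1725 and 666 with macrophages alone, and the difference was -5.42 ± 0.68 on the log2 scale (adjusted p = 0.000481). In Cxcl3, Lcn2 and Ccn3 the combined libraries did not overlap those with macrophages alone; this comparison and that with mono-culture in DMEM share the combined libraries. The falls also held macrophage genes. C1qa, a macrophage complement gene, had 39.7, 71.4, 1.74 and 0 in combined libraries, against 205, 327 and 501 with macrophages alone (-5.09 ± 1.14, adjusted p = 0.018). This call of C1qa was lost without any 1 of the 3 libraries of macrophages alone (adjusted p 0.0561 to 0.0632). The libraries with macrophages alone had the highest macrophage marker shares of the 4 cultures, 1.23%, 1.73% and 2.70%. Without the first library of macrophages alone 264 genes were called in this comparison, and without combined replicate 1 470.

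Whether both stimuli together gave the sum of their separate effects was tested with the interaction on the log2 scale. It passed for 18 genes (0.145%), 4 above the sum (0.0323%) and 14 below it (0.113%), with 1508 at an unadjusted p under 0.05; edgeR called 11 and DESeq2 138. Mmp9, with the smallest adjusted p, lay below the sum: it had 613, 807, 1471 and 778 in combined libraries, 123, 130 and 110 with macrophages alone, 1303 and 1721 with 4T1 CM alone, and 11.8, 16.2 and 15.4 with neither. Mmp9 was called higher with each stimulus alone, and its combined values overlapped those with 4T1 CM alone (interaction -3.77 ± 0.37, adjusted p = 0.00114). C3 also lay below the sum, with 758, 339 and 197 with macrophages alone and 754 and 861 with 4T1 CM alone (interaction -3.68 ± 0.56, adjusted p = 0.0283). Csf1r had 131, 154 and 258 with macrophages alone and 105 and 139 with 4T1 CM alone (interaction -3.81 ± 0.45, adjusted p = 0.00462). Of the 14 genes below the sum, 7 are partner-enriched. This means at least 4 times higher in day 0 macrophages than in fibroblasts mono-cultured in DMEM. So are 1 of the 4 genes above the sum and 763 of the 12401 genes tested. The macrophage marker share was highest with macrophages alone, and its part in the interaction was not tested. Hmox1 lay above the sum: 889, 1143 and 873 with macrophages alone and 3009 and 2158 with 4T1 CM alone (interaction 1.65 ± 0.28, adjusted p = 0.0343). Its combined values of 3213 to 4099 were the highest of the 4 cultures. The Hmox1 interaction was lost without any 1 of 8 libraries, with adjusted p values of 0.056 to 0.129. Without the second library of 4T1 CM alone 197 genes had an interaction, without combined replicate 2 73, and without any 1 of the first library of 4T1 CM alone, the 3 of macrophages alone or the 3 mono-cultures in DMEM 2 to 8.

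**Figure D5:**
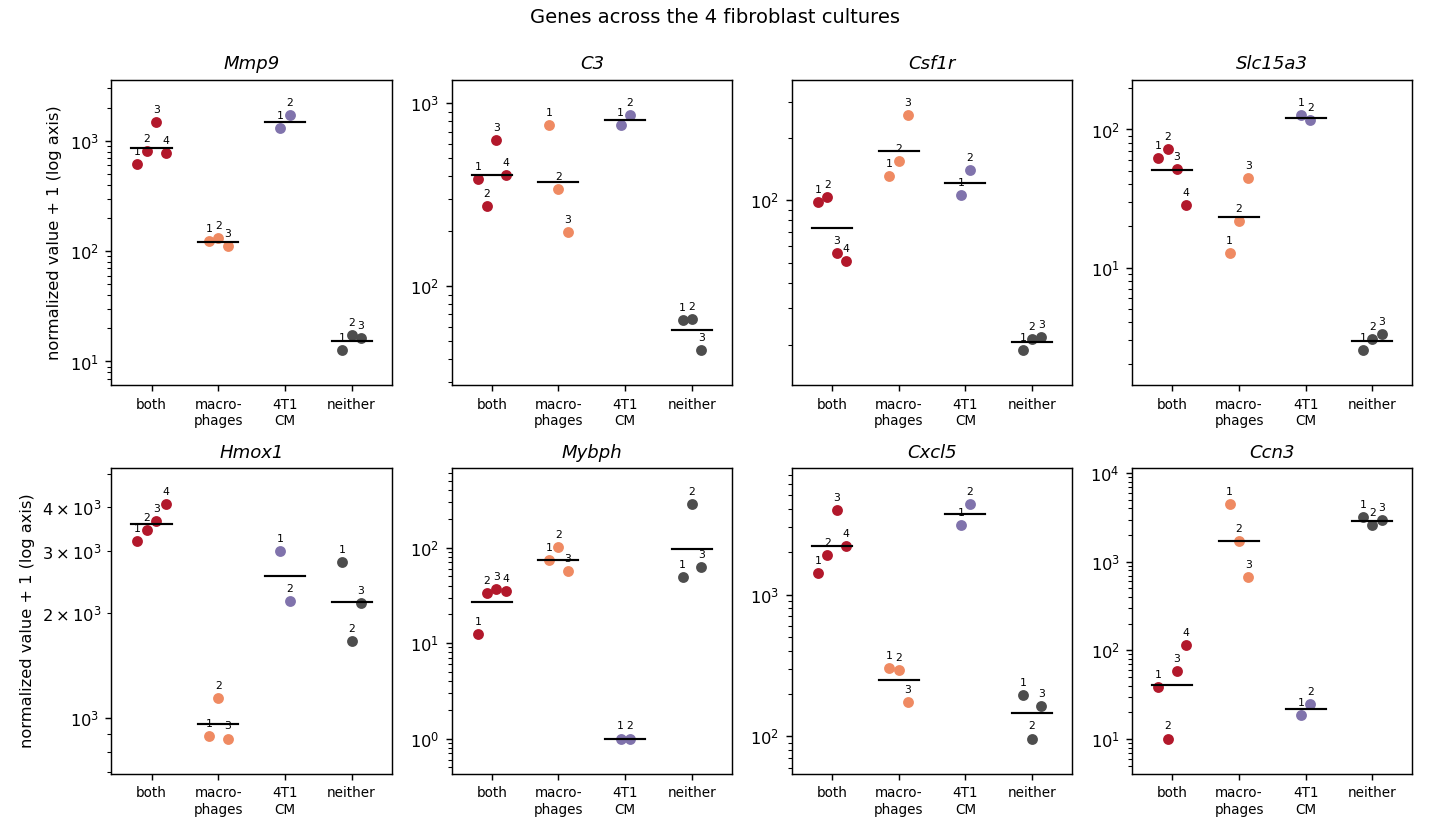
Normalized value + 1 on a log axis for 8 genes in fibroblasts with both stimuli, macrophages alone, 4T1 CM alone and neither. Points are libraries with replicate numbers and lines are means of the log values. Mmp9, C3, Csf1r and Slc15a3 were called higher with each stimulus alone, Hmox1 is highest with both (3213 to 4099), and Mybph has 0 in both libraries of 4T1 CM alone.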

How the data were processed

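Fibroblast libraries of 3' end messenger RNA were compared by culture and medium as the labels give them. The authors deposited a normalized signal per gene for fibroblasts and raw counts per gene for macrophages; bcl2fastq, HTSeq, STAR 2.4.2a and mm10 stand in the submitters' processing notes, with no roles given. Each deposited fibroblast value is a whole number of reads times 1 factor per library (100% of values within 0.001 reads), so edgeR 4.0.16 and DESeq2 1.42.0 could be run on the recovered reads as alternatives. The table lists 12948 genes; genes with at least 5 in at least 2 of the 12 fibroblast libraries (12401) went into limma's moderated two-sided test with a trend (version 3.58.1, R 4.3.3) on log2 of the value plus a pseudocount of 1. All 12 libraries entered 1 fit, so a group of 2 borrows its spread from the others. Each replicate pools 2 mice, per the labels.

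The gene lists, the genes named and the comparisons were chosen with earlier results of these data known. Named genes have adjusted p under 0.05, groups that do not overlap, a change of 1 or more on the log2 scale and, in the higher group, a mean of 20 or more: the largest changes (12 each way, and 6 each way that are not partner-enriched), and the 5 largest differences from each stimulus alone. Size and overlap were not required of the 5 called genes each way with the largest level difference, the 5 largest interactions each way, or up to 5 members per list by smallest adjusted p. A floor of 3 reads over the group stands in for a group with no reads. Macrophage markers (25 fixed genes, 24 in the fibroblast table) were summed as CPM from the deposited macrophage counts and the fibroblast reads. No macrophage column names day 0; the 3 headed as macrophages only in DMEM were assigned to it by elimination, and partner-enriched genes (763 tested) rest on that assignment. Gene positions come from GENCODE vM21 (mm10) and promoter windows from RefSeq (GRCm38.p6), with windows for 9817 of the genes tested.

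The fit was tested on simulated data of the combined comparison with 12401 genes: it recovered 64 of 100 genes changed 2-fold and 98 of 100 changed 4-fold, all with a mean of at least 20. It also called 7 unchanged genes (0.0574%). Genes were drawn independently, without the split among the combined libraries, and fewer were changed than the 1412 called in the data. Recovery in the data may thus differ. The floor covers counting error only; standard errors come from the spread between libraries. Some named genes are not reported here.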

Additional observations from a re-analysis of the deposited data

Results flagged for a closer look

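Among the 4 combined libraries, 5 of 129 genes tested had a library far from the others; chance gives about 1 in 20. Fmo2 had 500.0 normalized reads in replicate 2, against 189 to 241 in the other combined libraries. Ace had 17.5 in replicate 4, Mybph 11.5 in replicate 1, Tnmd 1.67 in replicate 4 and Cybb 2.09 in replicate 1; the last pair are 2 reads each.

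The difference between fibroblast libraries with and without macrophages was not the same in 4T1 CM as in DMEM for 18 genes, by the interaction test in limma. Below the sum of the separate changes were Trem2 (-6.30), Cybb (-5.11), Fcrls (-5.08), Slc15a3 (-4.23), Csf1r (-3.81), Mmp9 (-3.77), C3 (-3.68), Bend5 (-3.35), Gjb5 (-2.59), Creb3l3 (-2.50), Nid2 (-2.23), Hpse (-1.97), Psmb8 (-1.67) and Isg20 (-1.64). Above the sum were Tmem150a (1.35), Hmox1 (1.65), Syngr1 (3.51) and Mybph (5.12). Trem2, Cybb, Fcrls and Csf1r are macrophage genes, and the libraries with macrophages alone had macrophage marker shares of 1.23% to 2.70%, against 0.0998% to 0.549% in the combined libraries and 0.312% and 0.292% with 4T1 CM alone; the part of this in the interaction was not tested.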

How the results depend on the processing

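The combined comparison called 1166 to 1526 genes under other pseudocounts, filters, normalizations and tools, against 1412. Without 1 library it called 525 (without mono-culture replicate 1) to 1654 (without combined replicate 4), and 510 with combined replicates 3 and 4 only, a setting chosen after seeing the data. Of 120 named changes in this comparison 44 were lost with those 2 replicates, 10 with combined replicates 1 and 2 only, and up to 35 without 1 library (mono-culture replicate 2); none reversed. Of 28 list medians 11 changed sign under at least 1 alternative.

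Against 4T1 CM alone (3 genes) the count was 5 with a pseudocount of 0.5, 1 with a mean of at least 20 over all libraries, 27 with DESeq2, 93 with combined replicates 3 and 4 only, and 0 with a pseudocount of 5, quantile normalization, edgeR, the replicate block and only the compared groups; without 1 library it was 0 to 296. Against macrophages alone (725) it was 444 with only the compared groups, 1108 with combined replicates 1 and 2 only, 390 with 3 and 4 only, and 264 to 818 without 1 library. The interaction (18) gave 11 with edgeR, 138 with DESeq2, 1 with the replicate block, 64 with combined replicates 1 and 2 only, 296 with 3 and 4 only, and 2 to 197 without 1 library. The cause of these shifts was not tested. With the replicate block the combined comparison called 1449 genes. Deviations of libraries with equal replicate numbers correlated at -0.0343, 0.0207 and -0.0561. With so few libraries per group these values cannot tell whether equal numbers share mice. Depth limits folds of genes with few reads.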
